A study of Mus musculus with 7 samples.

Results

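Collagens are the main structural proteins of the extracellular matrix, and 41 of the 21475 gene names on the array are collagen genes, taken here as every name made of Col, a number, the letter a and a number. The 41 genes were read by 80 probes, and the brightest probe of a gene stands for it. By the type of matrix their proteins build, 8 genes were grouped as fibrillar, 7 as cartilage-type, 8 as basement membrane and 18 as other collagens.

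Collagen chains fold as trimers into a long helix of repeating glycine triplets. Types I, III and V assemble into the fibrils of loose and dense mesenchyme, and types II, IX and XI into the thinner fibrils of cartilage and of the sheath around the notochord. Type IV forms the sheet of every basement membrane, to which types XV and XVIII attach, and the remaining types coat fibrils, anchor epithelia or span the cell membrane. In the embryo, type II collagen is made before any cartilage is present, in the notochord, the sclerotome and several epithelia. Hedgehog signal from the notochord and floor plate is needed to form the sclerotome.

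The posterior second heart field (pSHF) is the splanchnic mesoderm behind the heart that feeds the atria and the atrial septum. It was dissected at embryonic day 9.5 from *Shh*-/- embryos and their wild-type (*Shh*+/+) counterparts, from crosses of superovulated *Shh*+/- females with *Shh*+/- males on a background labelled C56B/6 and CD-1 mixed. Both genotypes share that background, the mutation is not tied to a Cre line in the labels, and tissue of several embryos was pooled before RNA was extracted. Foregut endoderm came along with the mesoderm, while heart and neural tube were dissected away. There were 4 *Shh* mutant pools (1, 2, 3 and 4) and 3 wild-type pools (1, 3 and 4), each on 1 single-colour array.

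Pools of the same number were hybridized on 1 slide, the mutant pool in the first position each time, and array position can therefore not be told apart from genotype. For mutant pool 2, which had no wild-type partner among the 4 slides, a possible leak during hybridization is recorded in the labels. Between 59.8% and 70.6% of probes were well above background on an array, and no spot was saturated. All 10 pSHF markers examined, *Tbx5*, *Osr1* and *Isl1* among them, were well above background on every array. The 4 genes that check the genotype, *Shh* and the Hedgehog targets *Ptch1*, *Gli1* and *Hhip*, were lower in every mutant pool than in any wild-type pool. Their log2 fold changes were −1.11, −0.99, −0.94 and −2.67, and 1 of the 4 was called at an adjusted p under 0.05 in limma's test. Values throughout are log2 normalized intensities, differences are mutant minus wild type on that scale, and the number of arrays limits their precision. In pooled tissue, fewer cells of a type and less RNA per cell cannot be told apart.

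Of the 41 collagen genes, 36 were tested, being well above background on all arrays of 1 genotype or both. The 5 others were *Col10a1* of the cartilage-type group, *Col4a3* of the basement membrane group, and *Col6a3*, *Col28a1* and *Col29a1*. *Col10a1* and *Col29a1* were above background on 1 wild-type array each, and the other 3 on no array. *Col10a1* marks hypertrophic cartilage, a tissue that forms later in development.

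Across the 36 genes the fitted differences ran from −1.17 to 0.92 around a median of 0.03. They were negative for 17 genes and positive for 19, and over all 23116 probes tested the median was −0.005 with 51.6% negative. With limma's test and an adjusted p under 0.05, 2 collagen genes were called (5.56%), *Col9a1* and *Col2a1*, both lower in the mutants and both cartilage-type. Over all probes tested 0.545% were called. Shares of all probes count every probe of a gene, while a collagen gene counts once, by its brightest probe. With the mean of a gene's probes, 2 collagen genes were called, and 1.19% of all 14890 genes. At an unadjusted p under 0.05 in limma's test there were 10 of the 36 collagen genes, and 1688 probes in all (7.30%). Mutant and wild-type pools did not overlap for 8 genes that were lower in the mutants (22.2% of the 36, against 3.44% of all probes) and for 4 that were higher (11.1%, against 3.83%). *Col19a1*, among the 8 and at the −1.17 end of the range, passed the background filter only through its wild-type pools. In the authors' own normalized values, whose median over all probes lay at −0.54, 31 of the 36 differences were negative, and after each array of that table was set to 1 median 14 were.

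**Figure D1:**
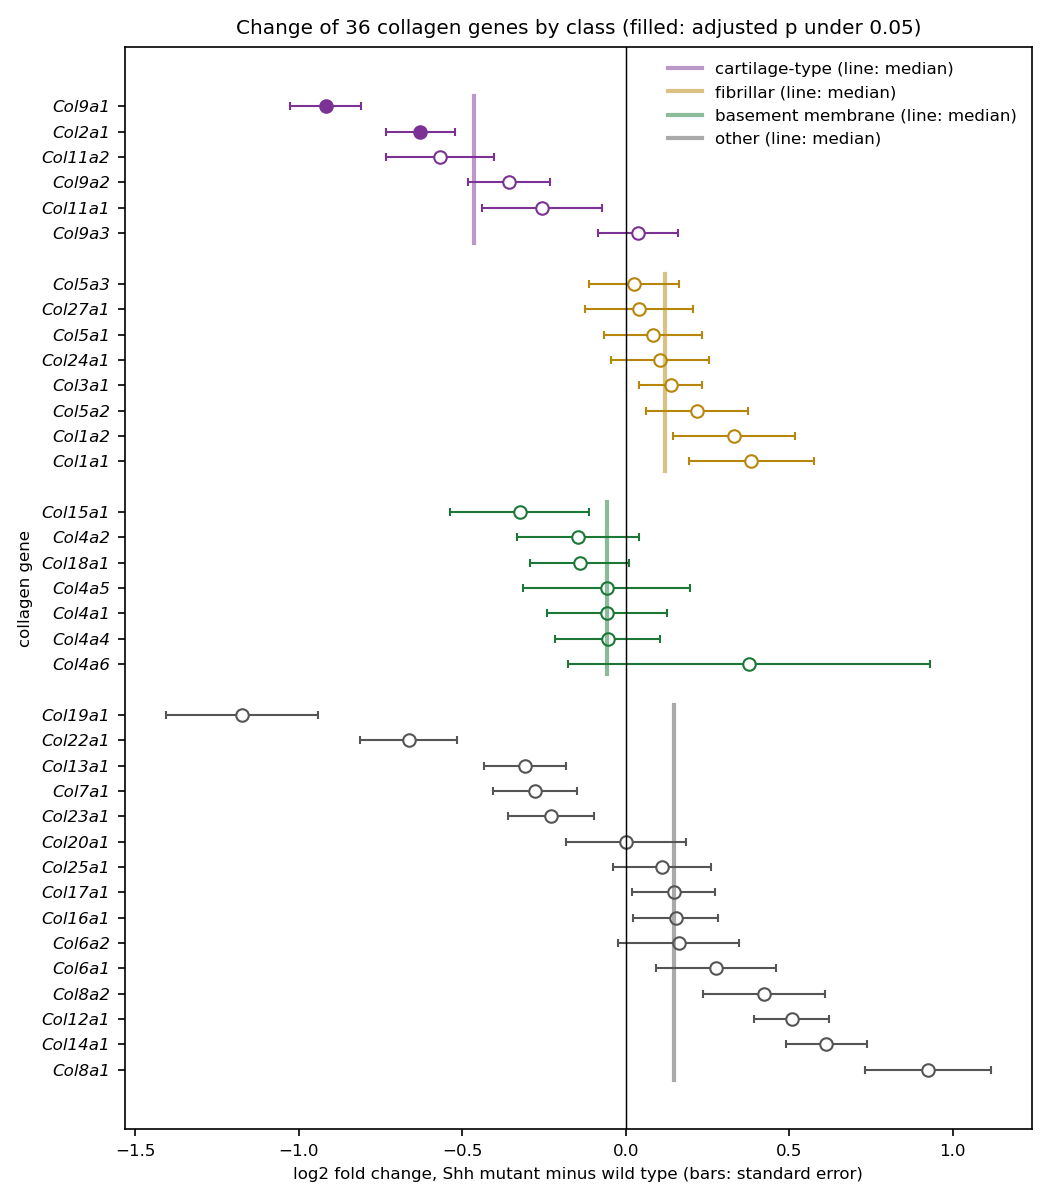
Log2 fold change (mutant minus wild type, x axis) of the 36 collagen genes tested, by class, with standard errors as bars, the class median as a vertical line, and filled points for an adjusted p under 0.05. Cartilage-type genes lie left of 0 for 5 of 6 genes with a median of −0.46, and all 8 fibrillar genes lie right of it with a median of 0.12.

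The cartilage-type group held both called genes. Of its 6 tested genes 5 were lower in the mutants, 4 of them with no overlap between genotypes, and the median difference was −0.46. Within the 3 slides that held both genotypes the group's median was −0.60, −0.26 and −0.61 on slides 1, 3 and 4. The mean level of the 6 genes was 8.63 to 8.85 in the mutant pools and 9.12 to 9.22 in the wild-type pools.

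*Col9a1* encodes a chain of type IX collagen, which sits on the surface of type II fibrils. Its probe lies at chr1:24258684-24258743 (mm9, as annotated in the array files). The intensities in mutant pools 1, 2, 3 and 4 were 8.77, 8.69, 8.67 and 8.88, and the wild-type values for pools 1, 3 and 4 were 9.72, 9.52 and 9.76. The 4 mutant pools lay close together and well below the wild-type pools. *Col9a1* fell by 0.92 (standard error 0.11, limma's adjusted p = 0.0141) to 52.9% of the wild-type level. The differences on slides 1, 3 and 4 were −0.95, −0.85 and −0.88.

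RefSeq lists 2 start sites for *Col9a1*, and the array has 1 probe for the gene, so that transcripts from the 2 starts were not measured separately. The 250 bases before each start are shown because this gene had the lowest adjusted p among the collagens (GRCm38.p6, plus strand, chr1:24177360-24177609 and chr1:24194953-24195202). Capitals mark a CCAAT box or a TATA box in either orientation.
Col9a1 first start: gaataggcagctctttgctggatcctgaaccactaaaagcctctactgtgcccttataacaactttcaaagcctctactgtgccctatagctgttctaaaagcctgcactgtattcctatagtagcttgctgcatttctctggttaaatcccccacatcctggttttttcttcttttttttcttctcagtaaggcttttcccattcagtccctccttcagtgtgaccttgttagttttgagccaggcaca
Col9a1 second start: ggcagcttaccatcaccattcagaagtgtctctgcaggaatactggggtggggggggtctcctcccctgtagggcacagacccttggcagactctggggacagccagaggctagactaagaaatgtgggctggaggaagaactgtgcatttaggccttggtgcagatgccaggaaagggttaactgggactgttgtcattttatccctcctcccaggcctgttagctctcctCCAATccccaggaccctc
The second window holds a CCAAT box and the first holds neither motif.

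*Col2a1* encodes the chain of type II collagen, the principal fibril protein of cartilage. Its brightest probe (chr15:97806485-97806544, mm9) is spotted 10 times on each array. The intensities of mutant pools 1 to 4 were 11.45, 11.57, 11.44 and 11.36, against wild-type values of 12.07, 11.98 and 12.20 for pools 1, 3 and 4. No mutant pool reached the lowest wild-type pool. *Col2a1* fell by 0.63 (standard error 0.10, limma's adjusted p = 0.0471) to 64.7% of the wild-type level, with differences of −0.63, −0.53 and −0.84 on the 3 slides. A second probe gave −0.67 (limma's adjusted p = 0.0461), and one more was not above background on any array.

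Both calls depended on the setting. With the slide as a replicate block *Col9a1* stood at −0.90 (limma's adjusted p = 0.0605) and *Col2a1* at −0.67 (adjusted p = 0.108). With 1 pool left out at a time the adjusted p of *Col9a1* ran from 0.0207 to 0.0767, and was past the threshold in all cases but 3, those without wild-type pool 1, mutant pool 3 or wild-type pool 4. That of *Col2a1* ran from 0.0883 to 0.172, so that its call needed every array.

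*Col11a2* encodes a chain of type XI collagen, found in the core of cartilage fibrils. Its intensities were 7.25, 7.84, 7.81 and 7.34 for mutant pools 1 to 4, against 8.16, 8.10 and 8.12 for wild-type pools 1, 3 and 4. The wild-type pools were almost equal while the mutant pools were spread, and the difference of −0.57 (standard error 0.16) did not pass the test (limma's adjusted p = 0.263). A second *Col11a2* probe gave 0.21 with overlapping genotypes, so the probes of this gene disagreed.
The 250 bases before the *Col11a2* start (GRCm38.p6, plus strand, chr17:34038888-34039137) are the only ones to hold a TATA box, in capitals, among the cartilage-type genes tested that had a window.
Col11a2: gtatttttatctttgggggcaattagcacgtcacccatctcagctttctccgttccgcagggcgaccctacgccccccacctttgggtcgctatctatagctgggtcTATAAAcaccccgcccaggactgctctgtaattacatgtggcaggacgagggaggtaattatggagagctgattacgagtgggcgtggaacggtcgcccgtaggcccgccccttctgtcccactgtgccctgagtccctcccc
The box stands far from the start site.

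*Col9a2*, which encodes another type IX chain, had intensities of 8.11, 8.55, 8.50 and 8.34 in mutant pools 1 to 4 and 8.70, 8.73 and 8.77 in the wild-type pools. The pools did not overlap, and the difference of −0.36 (standard error 0.13) did not pass the test (limma's adjusted p = 0.435). *Col11a1*, the partner chain of *Col11a2*, differed by −0.26 with overlapping pools, and *Col9a3*, the remaining type IX chain, by 0.04. The 3 type IX chains, which fold together, thus had differences of −0.92, −0.36 and 0.04.

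**Figure D2:**
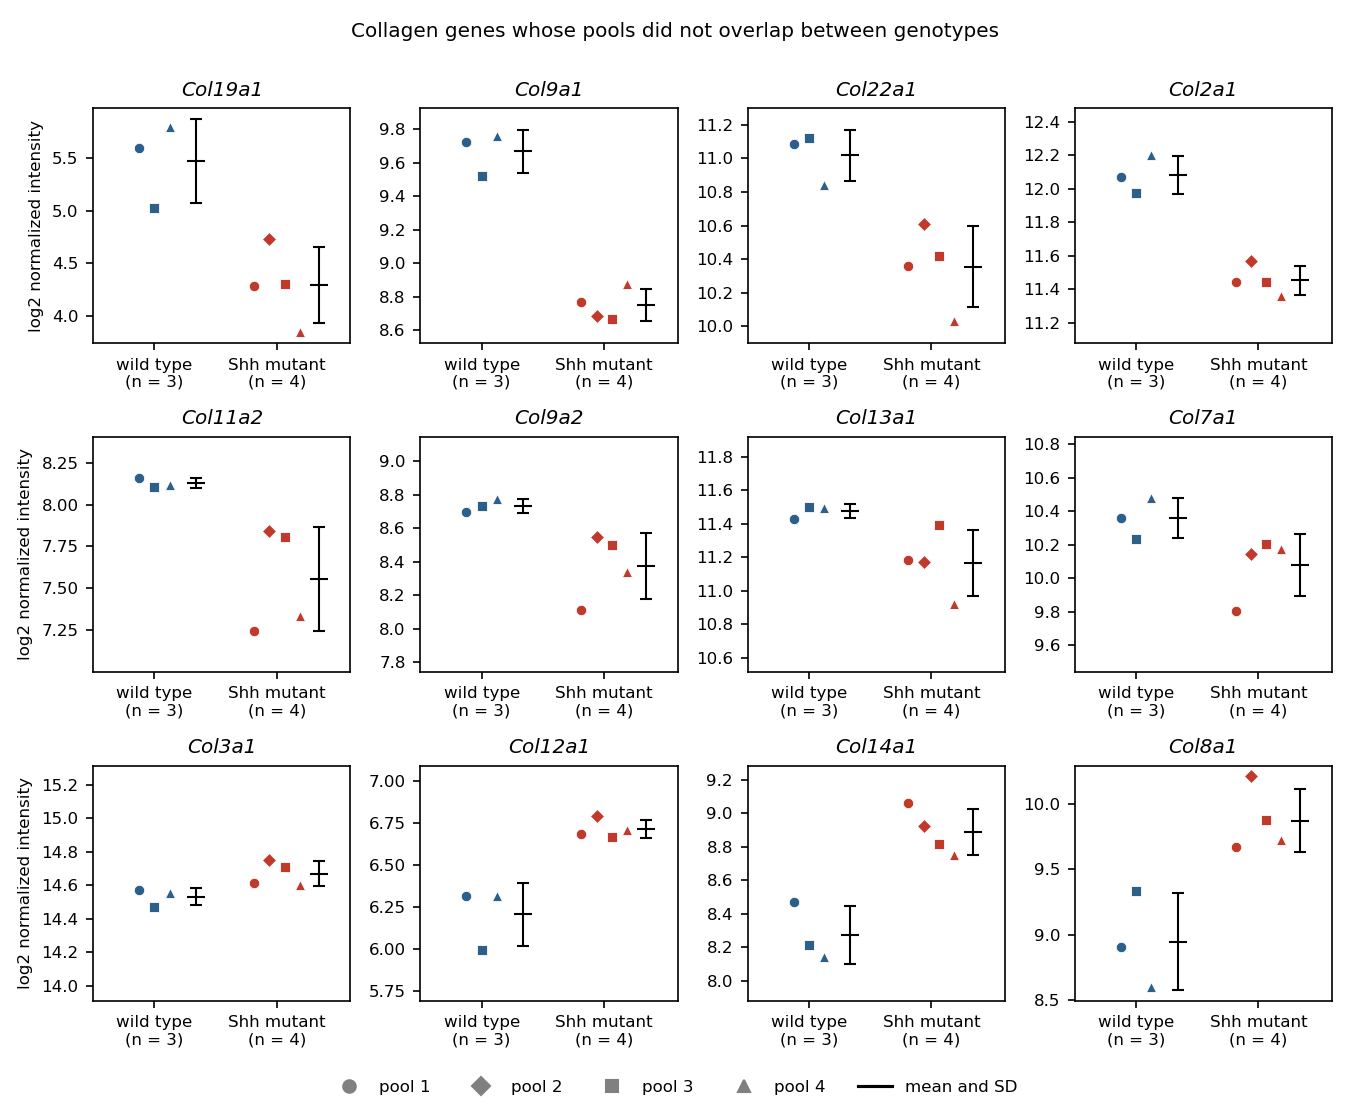
Log2 normalized intensity (y axis, own range in each panel) in each wild-type (blue) and *Shh* mutant (red) pool for the 12 collagen genes whose genotypes did not overlap, ordered by the difference, with mean and SD in black. The 8 genes from *Col19a1* to *Col7a1* are lower in all 4 mutant pools than in any wild-type pool, and the 4 from *Col3a1* to *Col8a1* are higher.

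Markers of the sclerotome and of the notochord and floor plate were read too, and most had lower values in the mutant pools. This was not particular to them. Most blood, neural crest and pSHF markers were lower as well, and most hepatoblast and heart muscle markers higher, as given below. Of 7 sclerotome genes 6 were lower (5 in the authors' values set to 1 median), with *Pax1* (−2.90, limma's adjusted p = 0.0380) and *Pax9* (adjusted p = 0.0335) called. *Pax9* was well above background in 1 of 4 mutant pools and 3 of 3 wild-type pools. It therefore entered the test only through the wild-type pools, and the size of its difference is not exact. Both calls were lost with 75th percentile scaling, the local background and the authors' values set to 1 median. The mean level of the sclerotome list was 6.67 to 7.06 in the mutant pools and 7.70 to 8.20 in the wild-type pools. All 6 notochord and floor plate genes measured were lower (4 of 6 in the authors' values set to 1 median), none of them called, with a mean level of 7.10 to 7.34 against 7.48 to 7.59. *T*, the defining notochord gene of the list, was well above background in 0 of 4 mutant pools and 3 of 3 wild-type pools. The part of these tissues in the *Col2a1* and *Col9a1* values was not tested. *Sox9*, the activator of *Col2a1* in cartilage, is named after its value was seen, since it differed by −0.02 (standard error 0.15).

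At the brightest probes, the fibrillar group had no called gene and no gene at an unadjusted p under 0.05. All 8 differences were positive, from 0.02 to 0.38 with a median of 0.12, but this depended on the setting. With background corrected from the local spot background 2 of them turned negative, *Col27a1* and *Col5a3*, at −0.02 and −0.03. In the authors' values 6 were negative, and 0 after each array was set to 1 median. With the slide as a fixed block 1 was negative, as with the mean of a gene's probes, and with 1 array left out 0 to 2 were. The group's median was 0.03, 0.34 and −0.15 on slides 1, 3 and 4, and its mean level of 11.10 to 11.44 in the mutant pools overlapped the 11.05 to 11.22 of the wild-type pools.

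*Col1a1* and *Col1a2* encode the chains of type I collagen, the fibril protein of most connective tissue. *Col1a1* stood at 14.65, 14.98, 14.85 and 14.12 in mutant pools 1 to 4, and at 14.24, 14.28 and 14.28 in the wild-type pools. *Col1a2* stood at 16.09, 16.16, 15.69 and 15.39 in the mutant pools and at 15.47, 15.41 and 15.62 in the wild-type pools. For both genes mutant pools 1, 2 and 3 lay above every wild-type pool and mutant pool 4 lay below every one. The differences were 0.38 (standard error 0.19, limma's adjusted p = 0.813) and 0.33 (0.19, 0.947). Without mutant pool 4 they were 0.56 and 0.48, with adjusted p of 0.120 and 0.300. Another *Col1a1* probe did not overlap between genotypes (0.65, limma's adjusted p = 0.211).

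*Col3a1* encodes type III collagen, which shares fibrils with type I. It was the fibrillar gene whose pools did not overlap, with 14.62, 14.75, 14.71 and 14.60 in the mutant pools and 14.57, 14.47 and 14.55 in the wild-type pools. The groups were separate by a narrow gap, the difference was 0.14 (standard error 0.10, limma's adjusted p = 1.00), and a second probe overlapped at 0.04. *Col5a2*, the next gene on the chromosome, differed by 0.22, and *Col5a1*, the main partner chain of *Col5a2* in type V collagen, by 0.08. *Col5a3*, *Col24a1* and *Col27a1* differed by 0.02, 0.11 and 0.04.

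Of the 7 basement membrane collagens tested none was called or had separate pools at its brightest probe. The differences were negative for 6, for 5 with the local background and for 4 in the authors' values set to 1 median, and the median was −0.06. On slides 1, 3 and 4 the median was 0.06, 0.02 and −0.25. The brightest *Col4a4* probe differed by −0.06, while a second was lower in the mutants with no overlap (limma's adjusted p = 0.548). That second probe was well above background in 1 of 4 mutant pools and 3 of 3 wild-type pools, so the size of its difference is not exact.

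*Col4a1* and *Col4a2* encode the chains of the type IV network found in all basement membranes. *Col4a1* stood at 11.83, 12.00, 11.93 and 11.22 in mutant pools 1 to 4 and at 11.77, 11.87 and 11.76 in the wild-type pools, and *Col4a2* at 11.17, 11.14, 11.27 and 10.54 against 10.94, 11.25 and 11.34. Mutant pool 4 was lowest for both. The differences were −0.06 (standard error 0.18) and −0.15 (0.19), and without mutant pool 4 they turned to 0.12 and 0.017. The genes are read in opposite directions from neighbouring start sites, as RefSeq lists them at chr8:11312826 for *Col4a1* and chr8:11312805 for *Col4a2* (GRCm38.p6). The 20 bases between these starts are shown on the plus strand (chr8:11312806-11312825) as the stretch the pair has in common.
Col4a1 and Col4a2: gtgcgcgggcggcgtctcca
Another type IV pair with neighbouring genes, *Col4a5* and *Col4a6*, differed by −0.06 and 0.38.

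At its brightest probe, *Col4a6* had the widest spread of all collagens tested. It stood at 11.17, 11.43, 12.03 and 9.88 for mutant pools 1 to 4, against 10.26, 11.93 and 10.06 for wild-type pools 1, 3 and 4. Both pools of slide 3 were high and both pools of slide 4 low, and the SD within genotypes was 0.96, against a median of 0.22 over the collagens tested and 0.18 over all probes. A second *Col4a6* probe was more even, at 7.62, 7.03, 7.37 and 7.64 in the mutant pools and 7.58, 7.58 and 7.31 in the wild-type pools. A further, dimmer probe was again highest on slide 3 in each genotype. *Col18a1*, whose product releases endostatin, stood at 15.55, 15.51, 15.37 and 15.04 in the mutant pools and 15.66, 15.57 and 15.29 in the wild-type pools. Its difference of −0.14 (standard error 0.15) turned to 0.34 with the local background. *Col15a1*, its nearest relative, differed by −0.32 with overlapping pools.

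**Figure D3:**
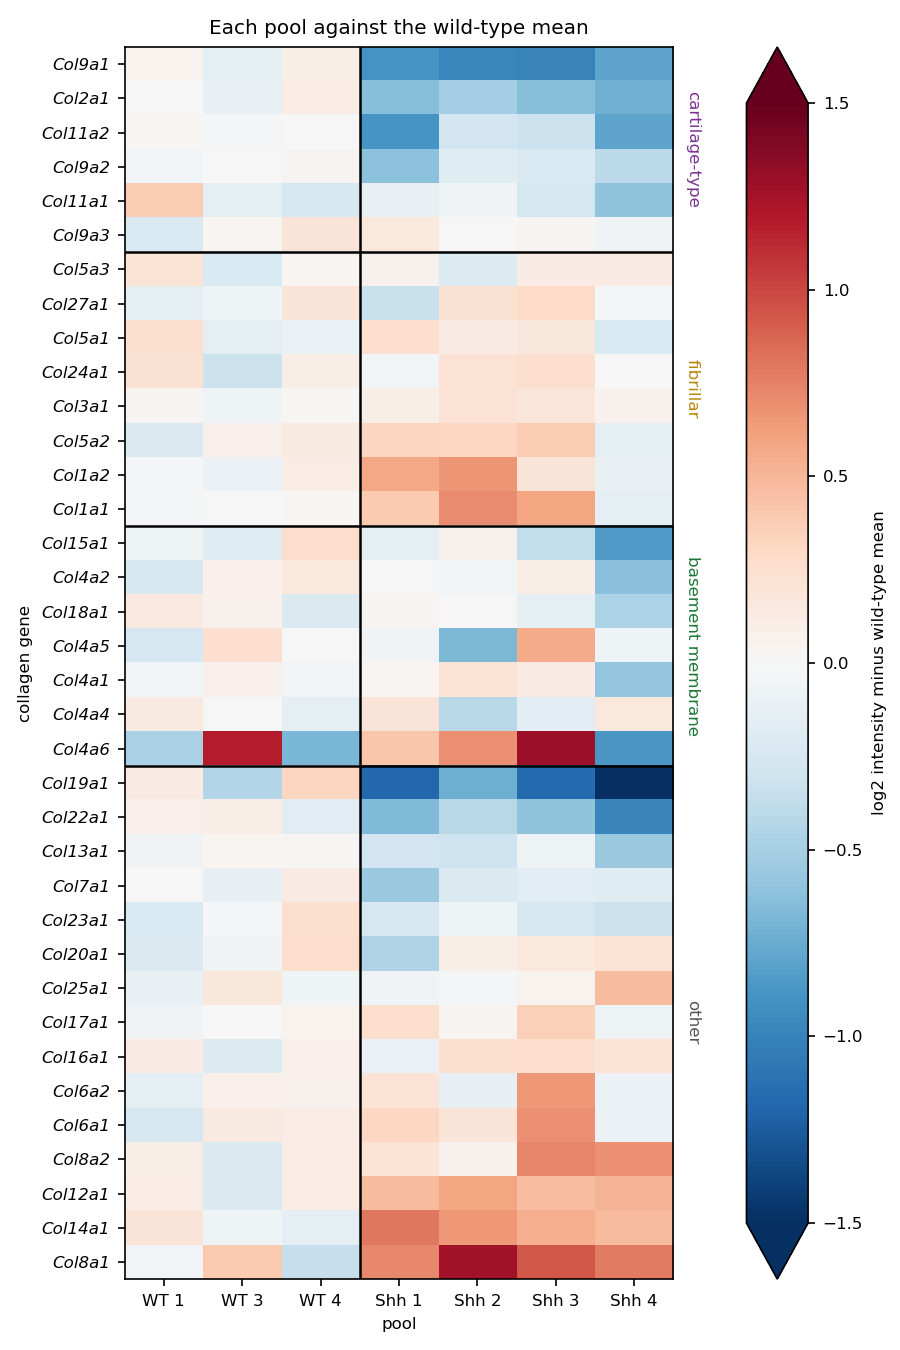
Log2 intensity of each of the 36 collagen genes tested (y axis, by class) in each pool (x axis; WT, wild type; Shh, *Shh* mutant), minus the gene's wild-type mean, in colour from −1.5 to 1.5. The blue block of *Col9a1* and *Col2a1* spans the 4 mutant pools, while mutant pool 4 is the lowest pool for *Col4a1*, *Col4a2* and *Col15a1*, and *Col4a6* varies by slide.

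The group of other collagens held differences in both directions. Of 15 genes tested none was called, 6 were at an unadjusted p under 0.05, 4 were lower with no overlap and 3 were higher with no overlap. The group's median of 0.15 lies between these.

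*Col19a1* encodes a collagen of basement membrane zones that is made in embryonic muscle. Its intensities were 4.29, 4.74, 4.30 and 3.85 in mutant pools 1 to 4 and 5.59, 5.03 and 5.79 in the wild-type pools. It was well above background in 0 of 4 mutant pools and in 3 of 3 wild-type pools, so the mutant level is only a bound. In the normalization used throughout, the mutant pools had an at least 1.50-fold lower *Col19a1* signal. The bound sets the wild-type mean against the lowest signal well above background on each mutant array, or the probe's own where that is higher. The fitted difference of −1.17 (standard error 0.23) did not pass the test (limma's adjusted p = 0.0802). The other 3 *Col19a1* probes were above background on no array. *Col19a1* was called with the interquartile range filter (limma's adjusted p = 0.0230) and with outlier spots kept (−1.43, 0.0487). The probe entered the test only through its wild-type pools, a selection that favours a lower mutant value. Its p-values and calls are therefore not read as support for a change. With quantile normalization its difference was smaller, at −0.52, and the bound was not computed for that setting.

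*Col19a1* and *Col9a1* are neighbours on chromosome 1, with 0 protein-coding genes between them in RefSeq and with probes 12.6 kb apart (mm9). The genes are read from opposite strands, and their start sites lie much further apart than the probes. Both genes were lower in the mutants on all 3 slides. The 250 bases before the *Col19a1* start (GRCm38.p6, minus strand, chr1:24587438-24587687) are shown because the genes are neighbours, and hold neither box.
Col19a1: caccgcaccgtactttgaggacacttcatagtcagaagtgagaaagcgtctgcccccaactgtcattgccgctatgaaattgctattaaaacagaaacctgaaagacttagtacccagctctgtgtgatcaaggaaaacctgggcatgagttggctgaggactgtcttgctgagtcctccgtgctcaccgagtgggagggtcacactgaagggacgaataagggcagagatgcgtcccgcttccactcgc
The neighbouring genes *Col3a1* and *Col5a2* on the same chromosome differed by 0.14 and 0.22.

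*Col22a1* encodes a collagen of tissue junctions, such as that between muscle and tendon. Its intensities were 10.36, 10.61, 10.42 and 10.03 in mutant pools 1 to 4 and 11.09, 11.12 and 10.84 in the wild-type pools. All mutant pools were lower, by 0.73, 0.70 and 0.81 within slides 1, 3 and 4. The difference of −0.66 (standard error 0.15) did not pass the test (limma's adjusted p = 0.121).

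*Col13a1*, a collagen that spans the cell membrane, stood at 11.19, 11.17, 11.40 and 10.92 in the mutant pools and at 11.43, 11.50 and 11.50 in the wild-type pools. *Col7a1*, the collagen of the anchoring fibrils under epithelia, stood at 9.81, 10.14, 10.20 and 10.17 against 10.36, 10.24 and 10.48. Neither pair of groups overlapped, and the gaps were narrow. The differences were −0.31 (standard error 0.12, limma's adjusted p = 0.599) and −0.28 (0.13, 0.742).

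*Col8a1* encodes a chain of the short-chain network collagen of vessel walls and of endothelial matrix. Its intensities were 9.67, 10.21, 9.88 and 9.73 in mutant pools 1 to 4, and 8.91, 9.34 and 8.60 in the wild-type pools. Every mutant pool was higher, at 189.7% of the wild-type level on average. The difference of 0.92 (standard error 0.19) did not pass the test (limma's adjusted p = 0.0976) but was called with the interquartile range filter (0.0456), and a second, overlapping probe gave 0.44. *Col8a2*, which encodes the other chain, differed by 0.42 with overlapping pools. Of 8 endothelial genes 4 were lower and 4 higher, none of them called, and the list's mean level was 10.56 to 11.03 in the mutant pools and 10.66 to 10.86 in the wild-type pools.

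*Col14a1* and *Col12a1* encode the pair of fibril-coating collagens that bind type I fibrils. *Col14a1* stood at 9.06, 8.92, 8.82 and 8.75 in the mutant pools and at 8.47, 8.22 and 8.14 in the wild-type pools, and differed by 0.59, 0.60 and 0.61 on slides 1, 3 and 4. *Col12a1* stood at 6.69, 6.79, 6.67 and 6.71 in the mutant pools and at 6.31, 5.99 and 6.31 in the wild-type pools. Every mutant pool was above every wild-type pool for both genes. The differences were 0.61 (standard error 0.12, limma's adjusted p = 0.0864) and 0.51 (0.11, 0.121), neither past the threshold.

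The other 8 genes of the group had overlapping pools at their brightest probes. *Col6a1* and *Col6a2*, chains of the beaded microfibrils of type VI, differed by 0.28 and 0.16, and both were highest in mutant pool 3. *Col23a1* was at −0.23, *Col20a1* at −0.00024, and *Col16a1*, *Col17a1* and *Col25a1* between 0.11 and 0.15. A second *Col23a1* probe was lower in the mutants with no overlap between genotypes (−0.36, limma's adjusted p = 0.213). Over all 36 genes, 12 were lower in the mutant on each of the 3 slides and 5 were higher on each. The matching shares over all probes were not computed, so these counts are not read as a trait of collagens.

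RefSeq promoter windows matched 32 of the 41 collagen genes with 35 windows, leaving *Col12a1*, *Col14a1*, *Col1a1*, *Col22a1*, *Col29a1*, *Col2a1*, *Col4a3*, *Col5a2* and *Col9a3*. In the 250 bases before the start, read on both strands, a GLI site (GACCACCCA) was found in 0 of the 35 windows and in 0.225% of all 32851 windows. A SOX site (AACAATG) was found in 0 of 35, and in 3.29% of all windows. A TATA box (TATAAA) was found in 5 of 35 and in 12.4% of all, and a CCAAT box (CCAAT) in 12 of 35 and in 33.8% of all.

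Collagen chains are modified and folded in the endoplasmic reticulum, trimmed outside the cell and then crosslinked. Of 16 genes for hydroxylation and folding 8 were lower and 8 higher, none was called, and the median was −0.003. The genes with no overlap were *Fkbp10* (0.19) and *Crtap* (0.17), which act in chaperone complexes of the nascent chain, and *P3h2* (−0.19), a prolyl 3-hydroxylase. Differences of this size are about as large as the SD between pools.

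Genes for trimming and crosslinking were mostly higher. Of 11 tested, 10 were higher and none was called, with a median of 0.26, and 5 were at an unadjusted p under 0.05. The pools of 4 did not overlap. *Adamts2* and *Adamts3*, which remove the amino-terminal propeptide of fibrillar procollagens, differed by 0.58 (standard error 0.11, limma's adjusted p = 0.0722) and 0.44 (0.11, 0.177). *Loxl1*, a lysyl oxidase, differed by 0.53 (standard error 0.10, limma's adjusted p = 0.0642). The mean level of the list was 9.37 to 9.52 in the mutant pools and 9.18 to 9.26 in the wild-type pools. After scaling to the 75th percentile and with the local background 3 of the 11 were lower, and the median stayed at 0.24 and 0.29. With quantile normalization 2 of the 11 were called.

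Of 9 genes whose proteins sit on or beside fibrils 8 were higher, with a median of 0.46, none of them called. The pools of *Tnc*, which encodes tenascin C, did not overlap (0.54, limma's adjusted p = 0.218). The mean level of these genes overlapped between genotypes, at 10.38 to 11.02 in the mutant pools and 10.10 to 10.83 in the wild-type pools, and it was lowest among the mutants in pool 4. Of 13 basement membrane partners 12 were higher with a median of 0.09, and only *Hspg2*, which encodes perlecan, had no overlap (0.40, limma's adjusted p = 0.341). Of 5 collagen receptor genes tested 3 were higher, and none had separate pools.

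Of 8 cartilage matrix partners 6 were lower, with a median of −0.08 and no call. *Matn4*, a matrilin, had lower values in the mutant pools (limma's adjusted p = 0.206), with a size that is not exact, since it was well above background in 1 of 4 mutant pools and 3 of 3 wild-type pools. *Comp*, which binds type II and IX collagen, was at −0.29, and *Sox6*, a partner factor of SOX9, was higher at 0.41 (limma's adjusted p = 0.286). Their pools did not overlap. In the authors' values set to 1 median, 4 of the 8 were lower and the median was 0.03.

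**Figure D4:**
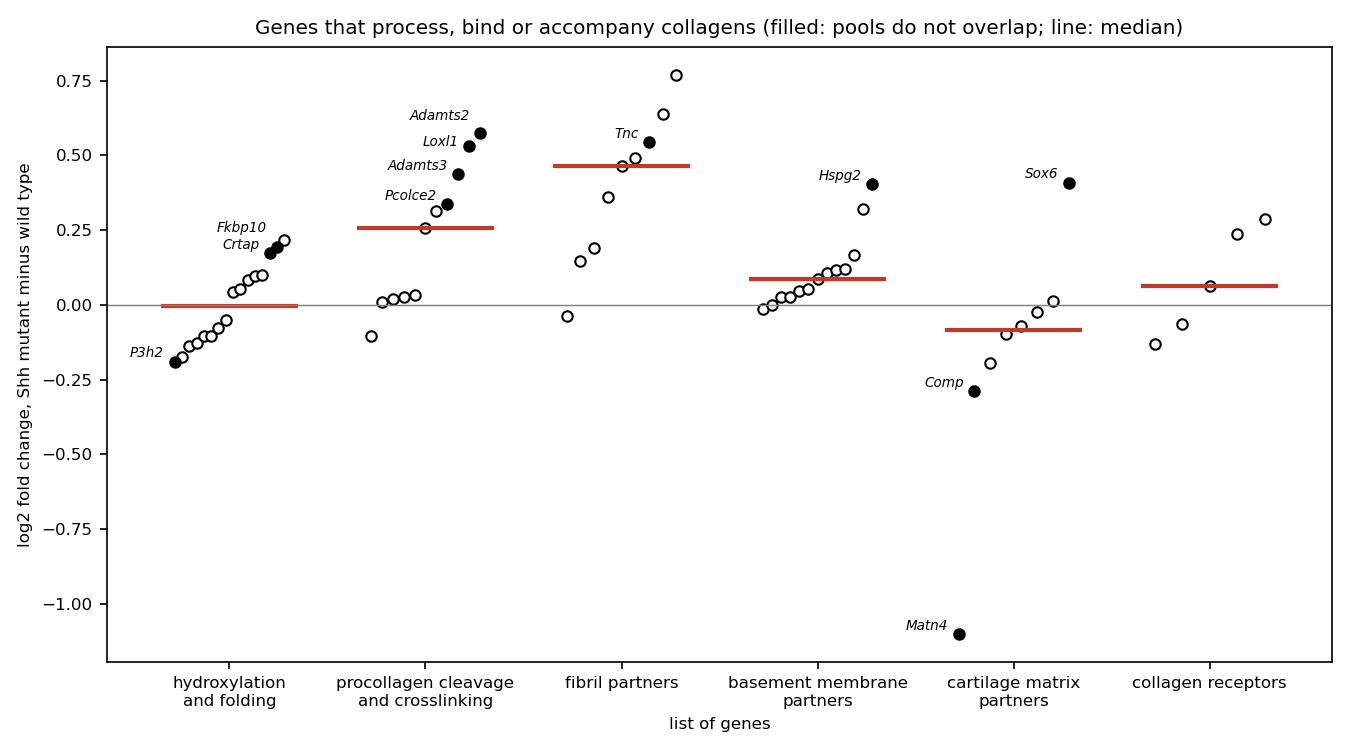
Log2 fold change (mutant minus wild type, y axis) of each tested gene in 6 lists of collagen-related genes (x axis), with filled, named points where pools did not overlap between genotypes and a red line at the list median. Crosslinking and fibril lists have medians of 0.26 and 0.46, and the others lie between −0.08 and 0.09.

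Markers of the pSHF and of other cells that the dissection could hold were read as well. All 8 hepatoblast genes had higher values in the mutants, with a mean level of 11.02 to 11.47 against 10.33 to 10.65. *Fga* and *Ttr* were called, neither of them with 75th percentile scaling, the local background or the authors' values set to 1 median, and 1 of them with quantile normalization. Of 8 heart muscle genes 7 were higher, none called, and their mean level of 14.03 to 15.16 in the mutant pools spanned the 14.12 to 14.85 of the wild-type pools, lowest in pool 4 of each genotype. Of 10 pSHF genes 7 were lower, *Foxf2* called (−2.46, limma's adjusted p = 0.0012), with a mean level of 10.82 to 11.19 in the mutant pools and 11.44 to 11.50 in the wild-type pools. The mean level takes in *Foxf2* itself, so it is not a measure of how much pSHF tissue a pool held. All 7 blood genes were lower, none called, at a mean level of 12.41 to 12.78 against 12.75 to 13.45. Of 8 foregut genes 5 were lower, *Nkx2-1* called (−0.88, limma's adjusted p = 0.0471), and the mean level was 10.96 to 11.08 against 11.05 to 11.23. Of 5 neural tube genes 3 were lower, *Nkx6-1* called (−0.89, limma's adjusted p = 0.0485), at 8.32 to 8.65 against 8.76 to 8.89. The *Nkx2-1* and *Nkx6-1* calls were lost under the same 3 scalings and backgrounds as that of *Fga*, and the *Foxf2* call in the authors' values set to 1 median. Of 7 neural crest genes 6 were lower, none called, at 9.44 to 9.83 against 9.75 to 10.01. The part of these cells in the collagen values was not tested.

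**Figure D5:**
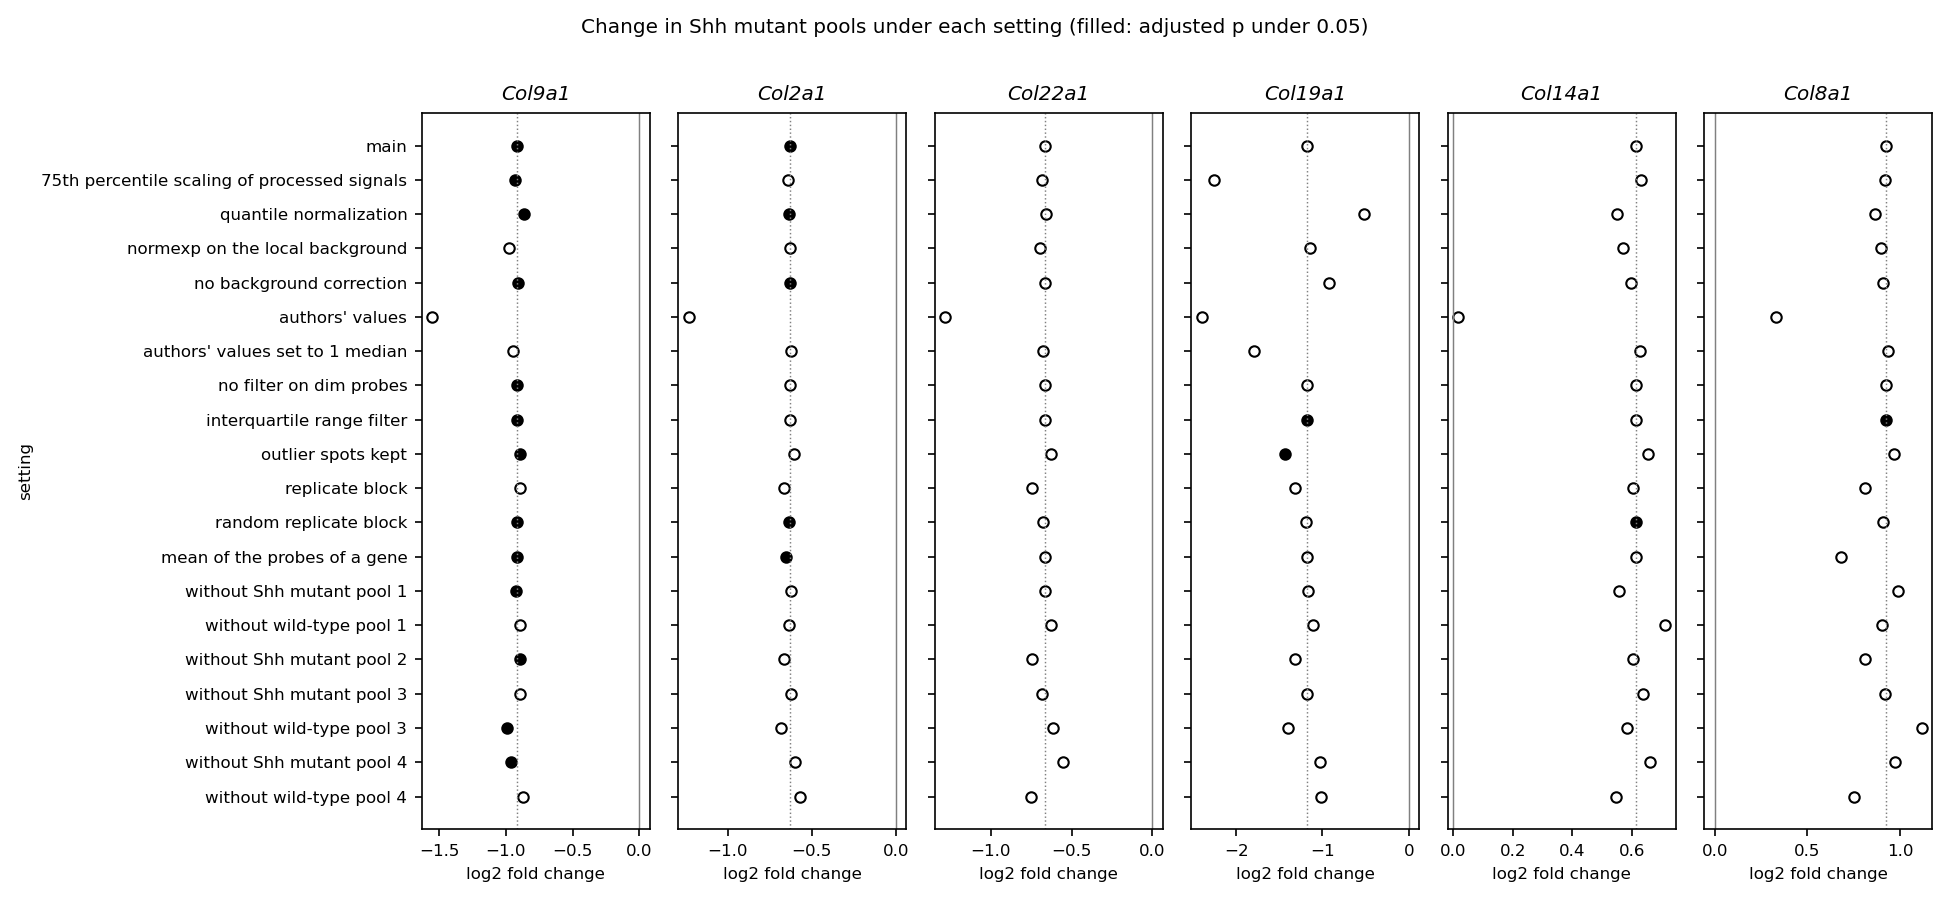
Log2 fold change (x axis, own range for each gene) of 6 collagen genes under each of 20 settings of processing and test (y axis), filled where the adjusted p was under 0.05, with a dotted line at the value reported. The direction of these 6 genes was the same in all 20 settings, the reported one among them, and the calls were not. All settings use the same arrays and a change of filter leaves a fitted value as it was, so the shared direction is not independent support.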

How the data were processed

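RNA from 7 pools of pSHF tissue was measured on 1-colour Agilent mouse arrays. The deposited scan files give signal and background intensity per spot, read by the authors with Feature Extraction 10.5.1.1, and a further table holds the authors' log2 normalized values, whose array medians ran from 5.50 to 9.93 with centring not given in the sources used here. In the labels the entries for strain and genotype stand in each other's place, and were read by content.

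Outlier spots were left out (155 to 206 an array). Mean signals were corrected by normexp against 153 negative control spots (offset 50), normalized by variance stabilization (own implementation) and expressed as log2. Named probes well above background on all arrays of 1 genotype or both were tested, 23116 probes of 14890 genes, with limma 3.58.1 in R 4.3.3 and Benjamini-Hochberg adjustment. In a simulation with 10000 probes, 200 of them changed, 85% of log2 changes of 1 and 99% of changes of 2 were called, with 4.17% of calls false. Its errors were independent between arrays with no slide effect, so these shares need not hold for the pools. Nothing states that pools came from separate crosses, so p-values measure the spread between these pools.

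Collagens called, separate between genotypes, or changed by at least 1 were given in full, *Col1a1*, *Col1a2*, *Col2a1*, *Col3a1*, *Col4a1*, *Col4a2* and *Col18a1* always, and of each partner list up to 3 genes with no overlap and the largest change. The members and lists were chosen with earlier results of these data known. Deviations from genotype means correlated at 0.19, 0.29 and 0.06 between arrays of a slide and at −0.22 to 0.18 between others. Slide was an alternative, as were other backgrounds, scalings, filters, SAM and leaving out each array.

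Lists of markers for sclerotome, notochord and floor plate, foregut, hepatoblast, endothelium, blood, heart muscle, neural crest, neural tube and pSHF were read.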

Additional observations from a re-analysis of the deposited data

Results flagged for a closer look

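Dixon's criterion was applied to the 4 mutant pools for each of the 36 collagen genes tested, and 3 genes met it, where chance flags about 1 group in 20. *Col16a1* was low in mutant pool 1, at 10.74 against 11.03 in the nearest mutant pool. *Col7a1* was also low in mutant pool 1, at 9.81 against 10.14. *Col5a2* was low in mutant pool 4, at 10.39 against 10.85.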

How the results depend on the processing

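Each comparison was recomputed under 13 alternatives and with each of the 7 arrays left out. The 2 called collagens became 1 with 75th percentile scaling and with no filter on dim probes (*Col9a1* in both), 0 with the local background, with the authors' values and with those values set to 1 median (chosen after seeing the data), and 4 with SAM at a q under 0.05 (*Col14a1* and *Col19a1* in addition). They became 3 with the interquartile range filter (*Col9a1*, *Col19a1* and *Col8a1*) and with the slide as a random block (*Col14a1* added), and 2 with outlier spots kept (*Col9a1* and *Col19a1*). With 1 array left out there were 0 to 1, and over all probes tested 9 to 117 calls in place of 126. Over all probes the calls were 54 with 75th percentile scaling, 22 with the local background, 38 with no filter, 231 with SAM, 205 with the slide as a random block and 0 in the authors' values, where 1 collagen was at an unadjusted p under 0.05 (9 after setting the medians). With the slide as a fixed replicate block 0 collagens were called, 11 were at an unadjusted p under 0.05, and 10 probes were called in all.

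In the authors' values, with 31 differences negative, the medians of the fibrillar, cartilage-type, basement membrane and other groups were −0.41, −1.11, −0.63 and −0.41, beside a median of −0.54 over all probes. The cartilage-type median was −0.60 with the interquartile range filter, which left fewer genes, and −0.27 with the mean of a gene's probes. *Col18a1* turned to 0.34 with the local background and to 0.36 in the authors' values set to 1 median, and *Col3a1* to −0.059 in the authors' values. With 1 array left out *Col4a1* ran from −0.14 to 0.12 and *Col4a2* from −0.26 to 0.017, each positive only without mutant pool 4. The cause of these moves was not tested. Among the genes given in full no other reversed, and 289 of their recomputed values kept their direction and side of the threshold. Small differences of further collagens also changed sign. In the authors' values set to 1 median, *Col4a5* went from −0.06 to 0.06 and *Col20a1* from −0.00024 to 0.20. Dim probes such as that of *Col19a1* were limited by background, and the smallest p an exact test of 4 pools against 3 allows is 0.0286.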
